A study of Daphnia pulicaria with 8 samples.

Results

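The Red and the Pale phenotype of Daphnia pulicaria from Doe Lake were compared through 1 library each, 2 of the 8 libraries of a study of whole adult water fleas that, by its title, addresses hypoxia and metabolism. The other 6 libraries were a Red and a Pale one from each of Black, Long and Round Lake. Per the labels' protocols, 30 animals from every lake were preserved and their total RNA was depleted of ribosomal RNA before directional libraries were made. The labels do not say whether the 30 animals were of both colours together or of each, nor give the animals' age, brood or collection date, so each library is a pool with no replicate in its lake. Transcript levels were deposited as FPKM, a fragment count divided by transcript length and by the size of the library. A difference is log2(Red FPKM + 1) minus log2(Pale FPKM + 1) within a lake, a scale that understates the change of low genes.

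Daphnia carry haemoglobin dissolved in the blood, and animals of poorly oxygenated water make more of it and look red. Hypoxia-inducible factor drives this response in Daphnia, and a family of prolyl hydroxylases marks the factor for breakdown when oxygen is plentiful. The body is enclosed in a cuticle of chitin and of many cuticle proteins, which is shed and rebuilt at each moult. Cuticle protein genes form one of the large gene families of arthropods, and the members are switched on at different stages of cuticle building.

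Of the 33069 genes in the table, 12865 averaged 1 FPKM or more across the libraries and were analysed. The deposited FPKM summed to 553539 in Doe Pale and 552706 in Doe Red, against 543804 to 582444 over all libraries, and 19274 and 19342 genes were above 0. The number of reads is not given in the sources used here. The steps between the lowest FPKM values, where 1 fragment was worth 1.02 times as much in Doe Red as in Doe Pale, put the depth of Doe Red at 0.977 of that of Doe Pale. Uncharacterized gene Daplx7pEVm025448 held 47.05% of the summed FPKM in Doe Pale and 48.12% in Doe Red.

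In Doe, 723 genes were higher in Red by at least 1 on the log2 scale (5.62% of the genes analysed) and 696 were lower by at least 1 (5.41%). With 1 library on each side these are counts past a fold and not test results. The median difference over all genes was -0.02, so list medians below were read against a value close to 0. Higher and lower genes were about as many in Doe. Lower genes outnumbered higher ones in Black, with 992 (7.71%) against 306 (2.38%), in Long, with 1248 (9.7%) against 505 (3.93%), and in Round, with 727 (5.65%) against 441 (3.43%). Part of that excess depended on scaling. The median of all genes was -0.19 in Black, -0.07 in Long and -0.03 in Round as deposited, and -0.01, 0 and -0.02 with median-of-ratios size factors, so values of Black in particular are to be read against its median. The higher genes were 23.6% of those past 1 in Black, 28.8% in Long and 37.8% in Round, and after quantile normalization 45.1%, 42.3% and 42.9%, while Doe had 51.0% and 50.3%. Past a difference of 2, Doe had 240 higher genes (1.87%) and 112 lower ones (0.871%). Cuticle protein genes made up 38.8% of those 240 and 9.82% of those 112, against 1.88% of all genes. Of the 3040 genes that were well expressed, averaging 10 FPKM or more in the Doe pair, 215 were higher by at least 1 (7.07%) and 240 were lower (7.89%). The share past 1 in either direction was 11.5% among genes averaging 1 to 2 FPKM, 9.63% at 2 to 5, 8.84% at 5 to 10, 13.1% at 10 to 50, 21.0% at 50 to 100 and 16.4% above 100 FPKM, with no steady trend.

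Cuticle protein genes were the largest named group on the Red side of Doe. The list holds 333 genes by name, of which 242 passed the filter, and 139 of these 242 were higher in Doe Red by at least 1 (57.4%, against 5.62% of all genes) and 22 were lower (9.09%, against 5.41%). Their median difference was 1.52 in Doe, -0.50 in Black, -1.37 in Long and -0.77 in Round, with the same signs under each of 3 other scalings. Summed over all 333 genes, cuticle FPKM was 5017 in Doe Pale and 13078 in Doe Red, 12062 in Black Pale and 9878 in Black Red, 6560 in Long Pale and 5349 in Long Red, and 7442 in Round Pale and 4556 in Round Red. Doe Red thus had the highest cuticle sum of the 8 libraries and Doe Pale the second lowest, and Doe was the one lake whose Red library had the larger sum. Doe Red was also the highest library for 92 of the 242 genes (38.02%), against 8.85% of all genes analysed, and Black Pale was the highest for 90 (37.2%), against 19.9%. Copies this alike can share reads, and how the deposited values divided them is not given in the sources used here, so a single cuticle gene is less certain than a family.

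**Figure D1:**
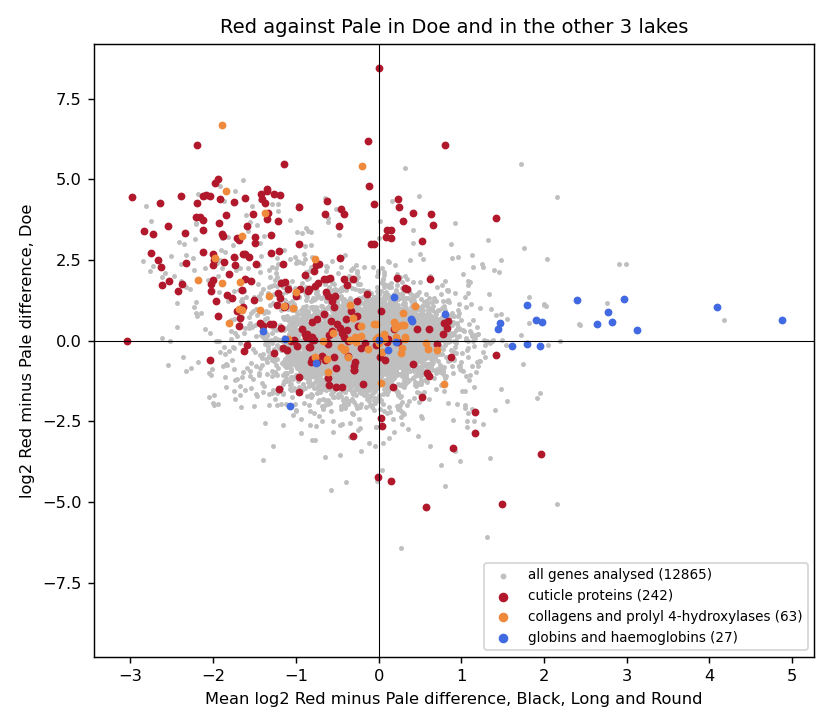
Each point is 1 of 12865 genes, with the mean log2 Red minus Pale difference over Black, Long and Round on the x axis and the Doe difference on the y axis; cuticle proteins, collagens with prolyl 4-hydroxylases, and globins are coloured. Many cuticle points (Doe median 1.52) lie at the upper left, above 0 in Doe and below 0 in the mean of the other lakes, while most globin points lie at the upper right.

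Genes were also grouped by a shared GeneName. The 15 genes named Pupal cuticle-like protein had the highest family median in Doe, 3.83, and 14 of them were higher by at least 0.5 (14.4% of all genes were). Their FPKM summed to 84.2 in Doe Pale and 1683 in Doe Red, while in Long it was 511 in Pale and 9.22 in Red. Long therefore had nearly none of these transcripts in its Red library and Doe few in its Pale one. Black had 1277 in Pale and 1065 in Red, a level near that of Doe Red in both colours, and Round had 437 and 192. The 82 genes named Cuticle protein had a median of 2.25 in Doe, with 67 higher and 5 lower by at least 0.5. In Long the median of the same 82 genes was -2.49, with 1 higher (12.8% of all genes) and 75 lower (23.5%). Cuticle-like protein (7 genes, Doe median 3.30) and Pupal cuticle protein (37 genes, 1.79) were likewise below 0 in Long, at -4.32 and -1.38. Cuticular protein 49Af (9 genes) was higher in Doe and in Black, with medians of 3.42 and 1.93, and had -0.94 in Long and -0.67 in Round. Endocuticle structural glycoprotein SgAbd-2, a name from the inner cuticle of locusts, had 24 genes with a Doe median of 0.64, yet a summed FPKM of 586 in Doe Pale and 536 in Doe Red, so its more abundant members did not follow its median.

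**Figure D2:**
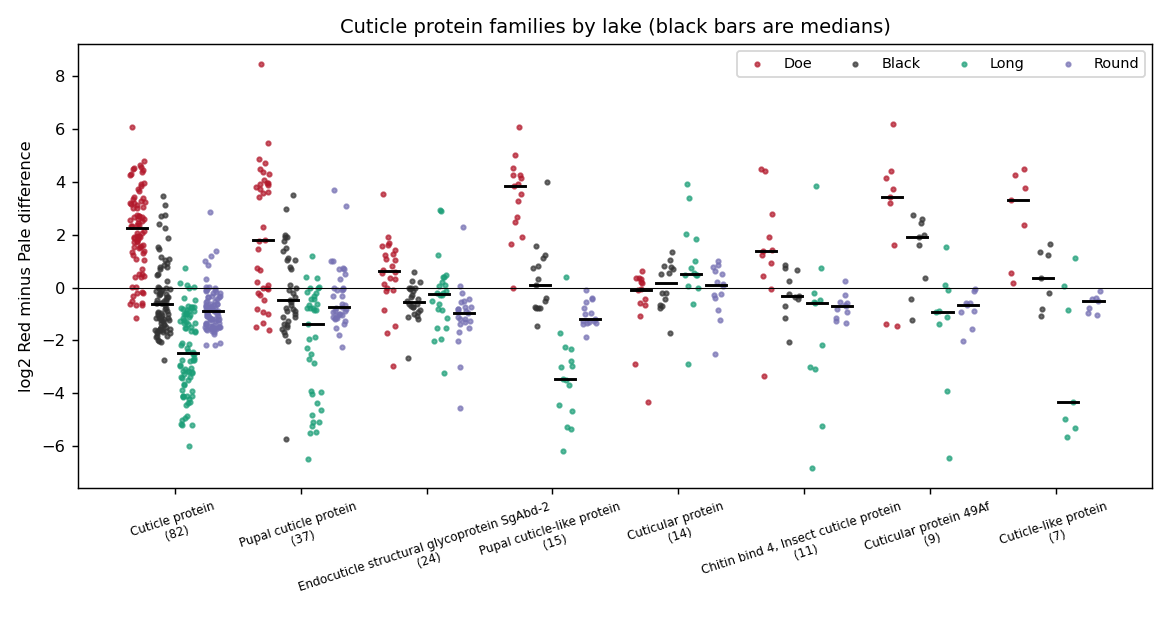
Log2 Red minus Pale differences (y axis) of the genes of the cuticle families with at least 5 genes analysed, by lake; each point is a gene, black bars are family medians and the number of genes is in brackets. Doe medians are the highest of the 4 lakes in every family except Cuticular protein, and the Long medians of Pupal cuticle-like protein, Cuticle-like protein and Cuticle protein lie below -2.

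The single genes with the largest Doe differences among well expressed genes were mostly of this kind. Pupal cuticle protein Daplx7pEVm029046 had 351 FPKM in Doe Red and was listed at 0 in the other 7 libraries, so it passed the filter through Doe Red alone. Pupal cuticle-like protein Daplx7pEVm021492 had 0.26 FPKM in Doe Pale and 83.7 in Doe Red, 109 and 64.7 in Black Pale and Red, 38 in Long Pale and 0 in Long Red, and 27.9 and 18.7 in Round Pale and Red. Doe Pale and Long Red stood low and the other 6 libraries, Doe Red among them, lay within a range of 18.7 to 109 FPKM. For the Doe difference of 6.07 it was thus Doe Pale that lay outside this range. Pupal cuticle protein Daplx7pEVm015612 was also lowest in Doe Pale and Long Red, with 3.29 and 1.51 FPKM. It had 192 in Doe Red, 36.6 in Long Pale, and 21.5 and 17.2 in Round Pale and Red. In Black it had 110 in Pale and 190 in Red, the opposite direction to the previous gene. Cuticular protein 49Af Daplx7pEVm019612 had 22.2 FPKM in Doe Pale and 491 in Doe Red, beside 148 and 451 in Black Pale and Red. In Long it was 87.0 in Pale and listed at 0 in Red, and in Round 72.0 and 38.2. Black and Doe thus shared the direction for this gene and Long and Round had the opposite one. Cuticular protein 49Af Daplx7pEVm020589 and Cuticle protein Daplx7pEVm023729 were listed at 0 in Doe Pale and had 72.9 and 65.9 FPKM in Doe Red, and their highest level elsewhere was in Black Red, at 14.3 and 13.4.

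A smaller set of cuticle genes stood the other way. Cuticular protein 27 precursor (Daplx7pEVm018423) had 58.4 FPKM in Doe Pale and 0.79 in Doe Red, 93.0 and 67.0 in Black Pale and Red, 0.21 and 55.0 in Long, and 29.8 and 19.4 in Round. Doe Red and Long Pale were the low libraries here, the mirror of the previous set. Cuticular protein Daplx7pEVm019610 had 257 FPKM in Doe Pale and 11.8 in Doe Red, 14.3 in Long Pale and 161 in Long Red, and 114 to 382 in the 4 libraries of Black and Round. Cuticular protein Daplx7pEVm015772 had 172 FPKM in Doe Pale and 22.5 in Doe Red, 23.2 in Long Pale and 366 in Long Red, and 190 to 265 in the other 4. Cuticular protein precursor Daplx7pEVm012136 and Daplx7pEVm059053 had Doe differences of -5.14 and -4.23 and Long differences of 2.68 and 3.08.

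Split by the Doe difference, a division made after the values were seen, the 139 cuticle genes higher by at least 1 summed to 887 FPKM in Doe Pale and 9987 in Doe Red. The order of the Doe Pale and Doe Red sums is fixed by that split, for these genes and for the lower ones below. The same 139 genes had 5804 and 5498 in Black Pale and Red, 2997 and 143 in Long, and 2795 and 1213 in Round. Long Red was the lowest library for this set, and 122 of the 139 were lower in Long Red by at least 0.5 (23.5% of all genes were). In Round 107 of the 139 were lower (17.5%), and in Black 59 were lower (25.4%) and 48 higher (7.56%). The 22 cuticle genes lower in Doe Red summed to 1665 FPKM in Doe Pale and 377 in Doe Red, and to 508 in Long Pale and 1811 in Long Red, with 14 of the 22 higher in Long Red by at least 0.5 (12.8%). Across the 242 cuticle genes the Doe differences correlated with those of Long at -0.65 (Pearson), with those of Round at -0.26 and with those of Black at 0.36, a description across related genes that share libraries. Over the other 12623 genes these values were -0.15, 0.06 and 0.15.

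Zormin, a protein of the muscle Z-disc in Drosophila, followed the smaller cuticle set and had the lowest family median in Doe. The 9 genes of that name had a median of -1.98 in Doe, 2.32 in Long, 0.06 in Black and -0.09 in Round. Of the 9, 8 were lower in Doe Red by at least 0.5 (17.1% of all genes) and 9 were higher in Long Red (12.8%). Zormin Daplx7pEVm019412 had 239 FPKM in Doe Pale and 2.52 in Doe Red, 1.15 in Long Pale and 79.9 in Long Red, 273 and 204 in Black Pale and Red, and 100.1 and 53.6 in Round. The low libraries were again Doe Red and Long Pale. Zormin Daplx7pEVm016289 had 168 and 30.1 FPKM in Doe Pale and Red and 18.7 and 251 in Long.

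Collagens, the fibrous proteins of the extracellular matrix, and the prolyl 4-hydroxylases that modify them numbered 63 analysed genes, with 27 higher in Doe Red by at least 0.5 (14.4% of all genes) and 4 lower (17.1%). The list median was 0.25 in Doe, -0.30 in Long, -0.13 in Round and -0.15 in Black, where all genes had -0.19 and where the list turned to 0.01 after quantile normalization. Their summed FPKM was 982 in Doe Pale and 2624 in Doe Red, the highest of the 8 libraries, and 1763 in Long Pale and 611 in Long Red, the lowest. Collagen alpha-2(IV) chain (Daplx7pEVm008090), named for a chain of basement membrane collagen, had 0.28 FPKM in Doe Pale and 130.5 in Doe Red, 119 and 41.2 in Black Pale and Red, 23.5 and 0.13 in Long, and 8.00 and 9.83 in Round. Collagen alpha-5(VI) chain (Daplx7pEVm002937) had 19.5 and 507 FPKM in Doe Pale and Red, 115 and 1.42 in Long, 102 and 135 in Black, and 96.8 and 74.8 in Round. Both had their lowest levels in Doe Pale and Long Red. Most collagens moved less, and 14 of the 15 that were higher in Doe Red by at least 1 were lower in Long Red by at least 0.5 (23.5% of all genes).

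Other families on the Red side of Doe had names outside the cuticle. Myosin regulatory light chain 2 smooth muscle (5 genes) had a Doe median of 2.16, Pollen-specific leucine-rich repeat extensin protein 1 (9 genes) 2.01, Neurotrophin 1 long protein (7 genes) 1.47 and Spz1 (6 genes) 1.15. The last pair carry names of Spätzle-type proteins, which in Drosophila are ligands of Toll receptors. All 4 families were below -1 in Long at their median, and all but the extensin-named one were below 0 in Black and Round too. Over the 251 families with at least 5 genes analysed, 20 had a Doe median of at least 0.5, and of these 11 were below 0 in each other lake, under each scaling tried, and 1 was above 0 in each. Of the 22 families with a Doe median of -0.5 or below, 7 were below 0 in each other lake (5 after quantile normalization) and 0 were above 0 in each (2 after it). The share of all 251 families below 0 in each other lake is not given, so these counts have no background. Families with little change in Doe could be below 0 there too. Chorion peroxidase precursor had -0.04 in Doe, -0.60 in Black, -0.47 in Long and -0.37 in Round.

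**Figure D3:**
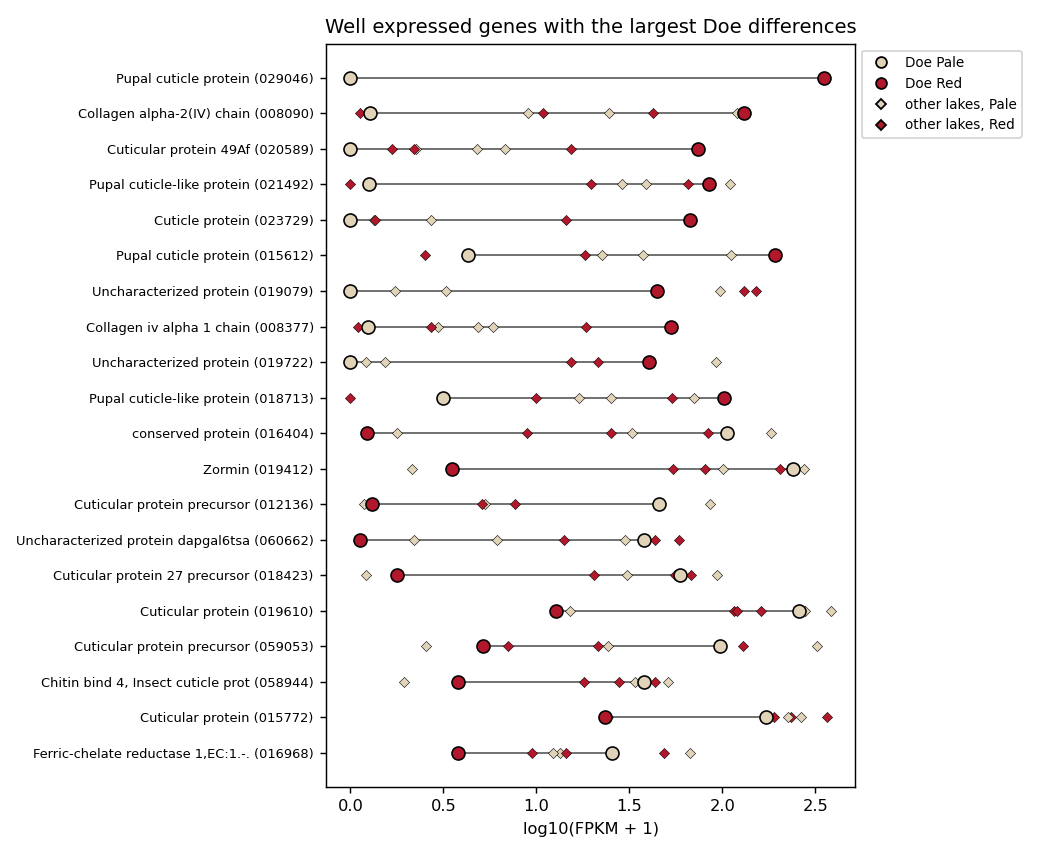
FPKM on a log10(FPKM + 1) axis of the 10 well expressed genes with the largest and the 10 with the smallest Doe difference, by the naming rule; circles are Doe Pale and Doe Red, joined by a line, small diamonds the 6 libraries of the other lakes, and the digits after a name end its gene identifier. For most of the upper 10 genes Doe Pale lies at or near 0, and for the lower 10 genes Doe Red lies below most of the other libraries.

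Genes without a descriptive name made up a larger share of the low side of Doe than of the high side. They were 61.6% of the genes lower by at least 2, 35.0% of those higher by at least 2 and 21.2% of all genes analysed. Dopamine beta hydroxylase (5 genes, an enzyme name of catecholamine synthesis in vertebrates) had a median of -1.48. Its most abundant member in Doe, Daplx7pEVm019968, had 229 FPKM in Doe Pale and 81.4 in Doe Red, 65.9 and 50.4 in Black, 66.2 and 34.9 in Long, and 74.6 and 35.1 in Round. Red was below Pale in each lake, and Doe Pale was the highest library. Glioma pathogenesis-related protein (5 genes) had -1.31, with 90.4 and 20.7 FPKM in Doe Pale and Red for Daplx7pEVm002604. Ferric-chelate reductase 1 (Daplx7pEVm016968), named for enzymes that reduce iron for uptake, had 24.5 FPKM in Doe Pale and 2.77 in Doe Red, 65.8 and 47.9 in Black, 12.5 and 13.4 in Long, and 11.4 and 8.51 in Round. Doe Red was the lowest of the 8 libraries for this gene.

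The test of a difference between lakes set the Doe difference against the mean of Black, Long and Round with limma, which assumes that the 1 Doe pair varies like the other 3. No gene passed the adjusted threshold of 0.05 in either direction: limma called 0 of 12865 (0%) higher and 0 (0%) lower in Doe. At an unadjusted p under 0.05, 638 genes were higher in Doe (4.96%) and 246 lower (1.91%), and without the Long pair 78 and 15 passed the adjusted threshold. The smallest adjusted p by limma, 0.0926, belonged to Pupal cuticle protein Daplx7pEVm029046, whose 3 other lake differences were all exactly 0. This gene passed the filter through Doe Red alone. Its own spread was 0, so its limma SE rests on the spread of other genes and its rank says little. Cuticle protein Daplx7pEVm021681 followed, with a Doe difference of 3.21 against -1.65 in Black, -1.64 in Long and -1.20 in Round, a gap of 4.71 ± 0.36 (limma SE). Chemosensory protein 13 precursor (Daplx7pEVm024875), named for small carriers of hydrophobic molecules in insects, had 9.32 FPKM in Doe Pale and 66.0 in Doe Red. In Black it had 40.3 and 19.4, in Long 23.6 and 7.17 and in Round 36.4 and 14.7, so Red was above Pale in Doe alone and Doe Red was the highest library. Carbonic anhydrase 2 (Daplx7pEVm012032), of the enzymes that hydrate carbon dioxide, had 2.41 and 31.0 FPKM in Doe Pale and Red against 20.5 and 11.6 in Black, 8.90 and 0.98 in Long, and 11.8 and 2.35 in Round, a gap of 4.90 ± 0.67 (SE).

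Directions were then counted lake by lake. Lower in Red by at least 0.5 in Black, Long and Round were 505 genes, of which Doe had 192 higher by at least 0.5 (1.49% of all genes analysed) and 143 lower (1.11%). With another lake as the odd one, the opposite count was 67 for Long (0.521%), 42 for Round (0.326%) and 16 for Black (0.124%). Cuticle proteins made up 56 of the 192 (29.2%, against 1.88% of all genes) and collagens with prolyl 4-hydroxylases 9 (4.69%, against 0.490%). In the other direction, 99 genes were higher in Red in the 3 other lakes, with 12 lower in Doe (0.0933%) and 41 higher (0.319%), and the opposite count was 13 for Black (0.101%), 12 for Round (0.0933%) and 9 for Long (0.07%) as the odd one. Among the 723 genes higher in Doe Red by at least 1, 400 (55.3%) were lower by at least 0.5 in Long, 345 (47.7%) in Round and 260 (36.0%) in Black, where 23.5%, 17.5% and 25.4% of all genes were. Higher by at least 0.5 were 112 (15.5%) in Long, 119 (16.5%) in Round and 170 (23.5%) in Black, beside 12.8%, 12.2% and 7.56% of all genes. Of the 696 genes lower in Doe Red by at least 1, lower by at least 0.5 as well were 370 (53.2%) in Black, 277 (39.8%) in Round and 240 (34.5%) in Long, and higher were 55 (7.90%), 94 (13.5%) and 164 (23.6%).

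Genes named by the rule as reversed in Doe were led by Spz1 Daplx7pEVm017090. Its FPKM was 8.33 in Doe Pale and 50.9 in Doe Red, 70.9 and 19.7 in Black Pale and Red, 42.4 and 0.73 in Long, and 48.7 and 10.6 in Round. Serine/threonine-protein kinase polo (Daplx7pEVm012641), a kinase of cell division, had 7.58 and 35.7 FPKM in Doe Pale and Red, 66.9 and 19.7 in Black, 28.7 and 0.57 in Long, and 34.4 and 9.28 in Round. Doe Pale was the lowest Pale library and Doe Red the highest Red library for both. Cuticle proteins Daplx7pEVm021361 and Daplx7pEVm018374 and the gene named niemannck type c-2 (Daplx7pEVm021049), a name of sterol carriers, completed these 5, with Doe differences of 3.40, 3.30 and 1.87. The 5 named in the other direction had smaller gaps, the widest that of Membrane glycoprotein lig-1 (Daplx7pEVm011915), which had 2.27 and 0.06 FPKM in Doe against 11.7 and 49.9 in Black, 0.66 and 14.3 in Long, and 2.04 and 3.80 in Round. L-2-hydroxyglutarate dehydrogenase (Daplx7pEVm009823), which oxidises a metabolite that builds up in hypoxic mammalian cells, had 7.05 and 4.04 FPKM in Doe Pale and Red, and its Red level was 6.09 to 7.18 in the other lakes.

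Summed globin FPKM was higher in Doe Red as in the other Red libraries. Of 27 globin and haemoglobin genes analysed, 15 were higher in Doe by at least 0.5 (14.4% of all genes) and 2 lower (17.1%), with a median of 0.56, against 1.71 in Black, 0.48 in Long and 1.25 in Round. Their summed FPKM was 3444 in Doe Pale and 5320 in Doe Red, and 1722 and 5267 in Black, 2165.6 and 4248 in Long, and 932 and 3865 in Round. Doe Pale was the highest of the Pale libraries and Doe Red was close to Black Red, so the ratio of Red to Pale was smaller in Doe than in each other lake. Globin Daplx7pEVm022328 had 266 and 634 FPKM in Doe Pale and Red, against 91.6 and 753 in Black, 96.4 and 739 in Long, and 212 and 503 in Round. The di-domain haemoglobin Daplx7pEVm013338 had 263 and 541 in Doe, 107 and 351 in Black, 6.83 and 339 in Long, and 3.28 and 148 in Round. As ratios, though not in FPKM units, its Red libraries differed less between lakes than its Pale ones. On the low side, di-domain haemoglobin Daplx7pEVm018901 had 5.23 FPKM in Doe Pale and 0.53 in Doe Red.

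Hypoxia signalling genes were few, with a Doe median of 0.12, and 2 of 8 were higher in Doe Red by at least 1 (5.62% of all genes). Hypoxia-inducible factor 1-alpha (Daplx7pEVm012460) had 0.41 and 2.90 FPKM in Doe Pale and Red, 0.29 and 1.85 in Black, 1.24 and 2.77 in Long, and 0.50 and 2.83 in Round. The prolyl hydroxylase gene Daplx7pEVm014955 had 7.74 and 21.3 in Doe, 5.10 and 16.01 in Black, 13.2 and 28.7 in Long, and 3.77 and 35.0 in Round. For both genes every Red library lay above every Pale one. Another prolyl hydroxylase gene, Daplx7pEVm009917, did not follow colour in this way. It had 5.23 and 6.68 FPKM in Doe Pale and Red, 6.33 and 4.92 in Black, 10.9 and 8.72 in Long, and 7.52 and 5.10 in Round. Von Hippel-Lindau disease tumor suppressor (Daplx7pEVm018967), the ubiquitin ligase subunit that recognises the hydroxylated factor, had 4.50 and 2.15 FPKM in Doe Pale and Red and was lower in the Red library of each other lake.

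Among the other genes alike in all 4 lakes, Pathogen-related-like protein (Daplx7pEVm015745) had 2.60 and 17.7 FPKM in Doe Pale and Red, and its lowest Red level in any lake, 11.7, was above its highest Pale level, 4.35. Clip-domain serine proteases, the activators of clotting and melanisation cascades in arthropods, included 3 of the largest Doe differences of their list, 2.53 for Daplx7pEVm010894, 2.37 for Daplx7pEVm013639 and 2.28 for Daplx7pEVm011050, all above 0 in each other lake. That list as a whole had a median of -0.02 in Doe. Of its 95 genes, 19 were higher by at least 0.5 (20%, against 14.4% of all genes) and 24 lower (25.3%, against 17.1%). Lower in all lakes were Prostaglandin-H2 D-isomerase (Daplx7pEVm017095), a lipocalin, with 54.4 and 16.6 FPKM in Doe Pale and Red, and Serpin B6 (Daplx7pEVm002307), a protease inhibitor, with 34.7 and 16.3. Prostaglandin-H2 D-isomerase was nearly the same in all lakes, at 54.4 to 68.6 FPKM in Pale and 16.6 to 25.7 in Red. Contactin-associated protein 1 (Daplx7pEVm011086) and Brain chitinase and chia (Daplx7pEVm022796), a name of chitin-degrading enzymes, had Doe differences of -1.74 and -1.53. Of the 143 genes lower in all lakes, 9 (6.29%, against 0.777% of all genes) were in the list of chitin synthesis, breakdown and peritrophins, and of the 41 higher ones 9 (21.95%, against 0.210%) were globins.

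Apolipoprotein D and lipocalins, carriers of small lipids, had the lowest list median in Doe, -0.84, with 8 of 11 genes lower by at least 0.5 (17.1% of all genes) and 1 higher (14.4%). Medians in the other lakes were -1.22 in Black, -0.69 in Long and -0.88 in Round. Apolipoprotein D Daplx7pEVm016393 had 213 and 79.6 FPKM in Doe Pale and Red, 174 and 48.1 in Black, 214 and 85.4 in Round, and 84.7 and 130 in Long. Long was the exception for this gene and for Daplx7pEVm019087, which had 192 and 84.8 in Doe and 68.6 and 125 in Long.

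Digestive enzyme genes were lower in Doe Red in most members, 65 of 83 being below 0, 37 lower by at least 0.5 (17.1% of all genes) and 10 higher (14.4%). Their median was -0.42 and their summed FPKM 9308 in Doe Pale and 6972 in Doe Red. Black and Round also had smaller sums in Red, with 5703 and 4724 in Black Pale and Red and 7307 and 6253 in Round. The list median was -0.27 in Black, where all genes had -0.19, and -0.29 in Round. Long was the exception, with 4388 in Pale and 5573 in Red and a median of 0.08. Chymotrypsin BI precursor, a gut serine protease, made up much of the Doe sums. Its 13 genes summed to 4553 and 3263 FPKM in Doe Pale and Red and had a median of -0.60. Alpha-amylase, which digests starch, had 7 genes summing to 407 and 213 in Doe Pale and Red. Pancreatic triacylglycerol lipase Daplx7pEVm006825 had 13.0 and 2.45 FPKM in Doe Pale and Red and 1.74 to 3.43 in the 6 libraries of the other lakes, and Chymotrypsin BI precursor Daplx7pEVm009223 went the other way, with 7.59 and 23.8. In whole animals fewer cells of a type and less RNA per cell cannot be told apart, which holds for this list and for those of yolk, muscle, eye and germ line.

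Yolk genes were also lower, with 9 of 20 below by at least 0.5 (17.1%) and 0 above by it (14.4%), a median of -0.44 and a summed FPKM of 1933 in Doe Pale and 1405 in Doe Red. The other lakes had larger sums in Red, 2388 and 3067 in Black Pale and Red, 1854 and 2576 in Long, and 2251 and 2466 in Round. Their medians did not all follow the sums, at 0.31 in Long, -0.05 in Black, where all genes had -0.19, and -0.24 in Round. In Round 6 of the 20 genes were lower by at least 0.5 (17.5% of all genes) and 1 was higher (12.2%). Vitellogenin-1 precursor Daplx7pEVm027417, the precursor of the egg yolk protein, had 421 and 221 FPKM in Doe Pale and Red, 931 and 752 in Black, 402 and 705 in Long, and 710.2 and 678 in Round. Vitellogenin-1 precursor Daplx7pEVm000564 had 19.7 and 4.70 in Doe. Lower in Doe Red as well were 2 abundant genes named copper-zinc superoxide dismutase, a domain that in Daphnia magna is also found fused to vitellogenin. Daplx7pEVm000386 had 1402 and 660 FPKM in Doe Pale and Red, 1120 and 3620 in Black, 1642 and 1932 in Long, and 1353 and 1276 in Round, and Daplx7pEVm000278 had 252 and 72.6 in Doe. Doe Red was the lowest library for both. The glutathione and antioxidant list that holds them had a median of -0.12. Of its 72 genes, 10 were higher by at least 0.5 (13.9%, against 14.4% of all genes) and 9 lower (12.5%, against 17.1%).

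Energy metabolism differed little at the level of lists. Glycolysis had a Doe median of -0.04, with 0 of 9 genes higher by at least 0.5 (14.4%), against 0.62 in Black, 0.33 in Long and 0.04 in Round. Hexokinase-1 (Daplx7pEVm007854), which starts glucose use, had 34.9 FPKM in Doe Pale and 16.6 in Doe Red, the highest and the lowest of the 8 libraries, and 19.6 to 26.2 in the other 6. The 3 lactate dehydrogenases had a median of 0.37. L-lactate dehydrogenase A chain Daplx7pEVm012127, which regenerates the coenzyme of glycolysis without oxygen, had 45.2 and 58.8 in Doe, 32.3 and 92.5 in Black, 42.1 and 77.7 in Long, and 38.9 and 59.8 in Round. Each lake had more of it in Red, with the smallest difference, 0.37, in Doe. The 25 genes of the tricarboxylic acid cycle had a Doe median of -0.16 and the 77 of the respiratory chain and ATP synthase -0.07. Glycogen and trehalose had -0.01, fatty acid oxidation -0.03 and fatty acid elongation, desaturation and synthesis -0.09.

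The 14 iron genes had a Doe median of -0.04. The 11 genes of haem synthesis and breakdown had 0.29, with 4 higher by at least 0.5 (14.4% of all genes) and 1 lower (17.1%), beside 0.58 in Black, 0.35 in Long and -0.11 in Round, the last 0.02 after quantile normalization. The abundant ferritin heavy subunit genes, which store iron, were lower in Doe Red, with 265 and 143 FPKM for Daplx7pEVm017571 and 225 and 153 for Daplx7pEVm019056, and lower in Red in each other lake as well. Coproporphyrinogen-III oxidase (Daplx7pEVm011720), of haem synthesis, had 4.27 and 7.54 FPKM in Doe Pale and Red and was higher in each Red library. Opsins and visual proteins had a Doe median of 0.30 over 26 genes (0.17 with the name pattern as first written). In Doe 10 of them were higher by at least 0.5 (38.5%, against 14.4% of all genes) and 6 lower (23.1%, against 17.1%). The median was 0.81 in Round, -0.28 in Long and -0.15 in Black, the last 0.07 with size factors. The rhodopsin-type receptor Daplx7pEVm012168 had 29.4 and 72.3 FPKM in Doe. Muscle structure had a Doe median of -0.37, 14 of 17 genes being below 0. By at least 0.5, 6 were lower (17.1% of all genes) and 1 higher (14.4%). The other lakes shared the direction, at -0.44 in Black, -0.59 in Long and -0.24 in Round, the last 0.04 after quantile normalization. Titin (Daplx7pEVm000215), the giant spring protein of the sarcomere, had 29.95 and 14.9 FPKM in Doe, the latter the lowest of the 8 libraries. It was lower in Red in each other lake as well.

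The remaining lists lay within 0.2 of 0 in Doe, the distance from which a list is described as shifted. They were cytosolic ribosomal proteins at 0.03, mitochondrial ribosomal proteins at 0.08, proteasome subunits at 0.09, DNA replication and core histones at 0.01, germ line at -0.01, heat shock proteins and chaperones at 0.06, circadian clock at 0.07, ion pumps and carbonic anhydrases at -0.11, lectins, C1q and fibrinogen-like proteins at -0.05, and chitin synthesis, breakdown and peritrophins at -0.02. The chitin list had a lower tail in spite of its median. In Doe Red 16 of its 100 genes were lower by at least 1 (5.41% of all genes) and 1 was higher (5.62%). In Black, Long and Round 17, 16 and 15 were lower by at least 1 (7.71%, 9.7% and 5.65% of all genes). Higher by at least 1 were 1, 8 and 0 (2.38%, 3.93% and 3.43%). Ecdysone, juvenile hormone and nuclear receptor genes, among which are the switches of moulting, had -0.12. Of these 23 genes, 5 were higher by at least 0.5 (14.4% of all genes) and 5 lower (17.1%). Ecdysone-induced protein 78C (Daplx7pEVm002756) had 0.83 and 2.68 FPKM in Doe Pale and Red, 2.96 and 1.98 in Black, 3.79 and 1.40 in Long, and 2.29 and 1.57 in Round, Doe Pale being the lowest library. Tudor and KH domain-containing protein, a germ line RNA-binding family, had a median of -0.97 over 5 genes, led by Daplx7pEVm025253 with 100.3 and 32.9 FPKM in Doe, and was below 0 at its median in each other lake.

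**Figure D4:**
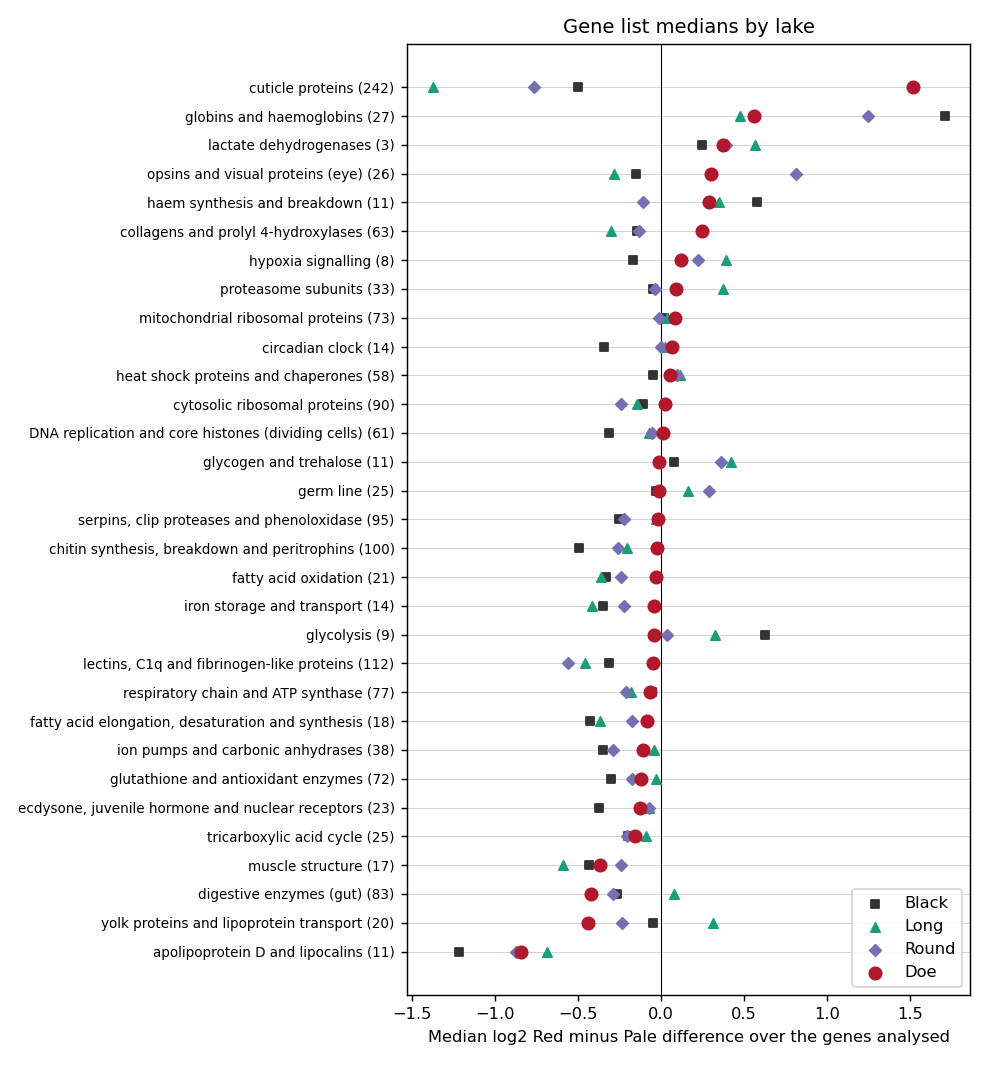
Median log2 Red minus Pale difference (x axis) of each gene list (y axis, with the number of genes analysed), one symbol per lake and Doe as red circles. Cuticle proteins (1.52) and collagens with prolyl 4-hydroxylases (0.25) are above 0 in Doe and below 0 in the other 3 lakes, except that the collagen median of Black was 0.01 after quantile normalization, while globins are above 0 and lipocalins below 0 in all 4.

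**Figure D5:**
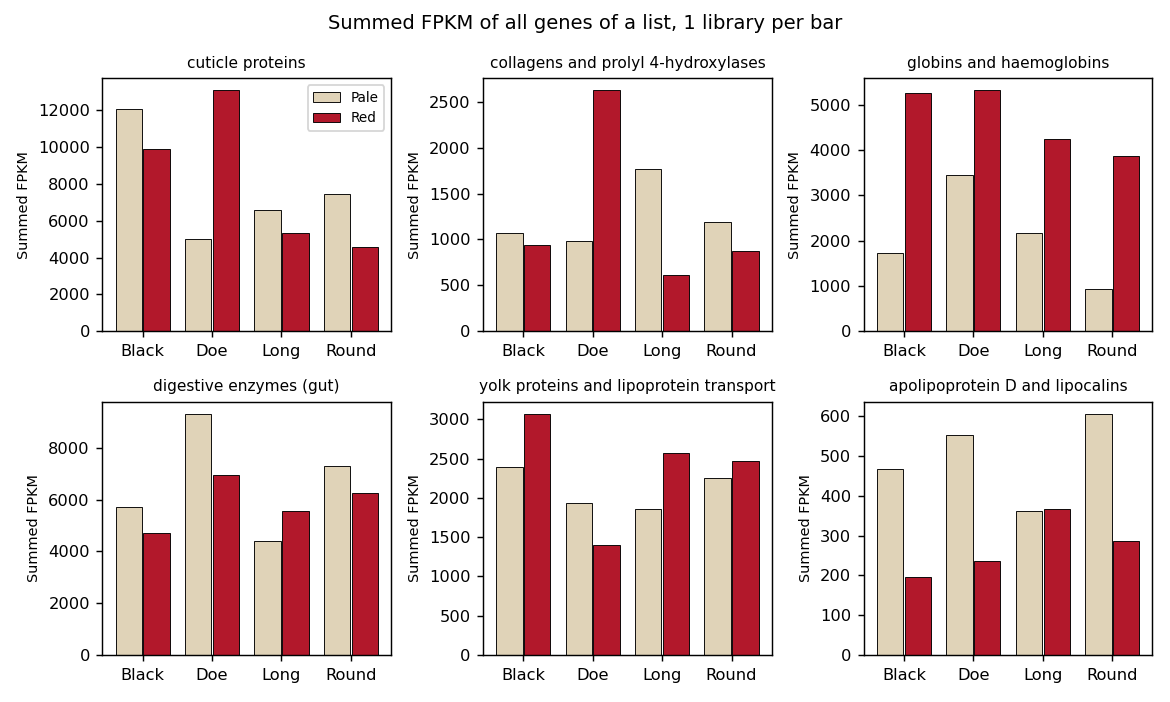
Summed FPKM (y axis, from 0) of all genes of 6 lists in each of the 8 libraries, with Pale and Red bars side by side by lake and 1 library per bar. Cuticle and collagen sums are highest in Doe Red (13078 and 2624 FPKM), the Pale globin sum is highest in Doe (3444), and the digestive enzyme sum is highest in Doe Pale (9308).

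Isoforms could move where their gene did not. Of 11853 isoforms of well expressed genes that averaged 1 FPKM or more, 1108 were higher in Doe Red by at least 1 (9.35%) and 1272 lower (10.7%). An isoform on each side was found in 169 genes, beside 2791 well expressed genes with 2 or more isoforms. That count is not given for the other lakes. Several isoforms and a Doe gene difference within 0.5 were found in 1928 well expressed genes. Of these, 208 had an isoform whose share of the gene moved by at least 20 percentage points in Doe, beside 141 in Black, 210 in Long and 168 in Round. On these genes the Doe count was within the range of the other lakes. The genes were chosen on Doe values alone and could be low or changed in the other lakes, so the counts are not fully alike. For Nuclear transport factor-2 (Daplx7pEVm022259), the carrier that returns Ran to the nucleus, isoform 1 had 4.27 and 11.6 FPKM in Doe Pale and Red, or 29.9% and 99.8% of the gene, and isoform 2 had 10.03 and 0.02. In the other lakes isoform 1 took 45.2% to 61.6%, so both Doe libraries lay outside that range on opposite sides. For Activin receptor type-1 (Daplx7pEVm006999), a kinase receptor of the TGF-beta family, isoform 2 took 11.1% of the gene in Doe Pale and 81.9% in Doe Red, 0% and 81.2% in Black, 100% and 0% in Long, and 61.3% and 0% in Round. Transport protein TonB, putative (Daplx7pEVm015398) had isoform 3 at 10.8% in Doe Pale and 71.7% in Doe Red, and at 55.5% to 86.3% in the other 6 libraries. These isoforms had at most 14.6 FPKM in any library, and how reads were divided between isoforms is not given in the sources used here.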

How the data were processed

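Whole adult Daphnia pulicaria RNA was measured in 8 libraries, 1 per lake and colour. The authors deposited FPKM values per gene and per isoform, with 2 decimals and each gene equal to the sum of its isoforms to within 0.04. Trimmomatic is named in the submitters' processing notes; how reads were aligned and quantified, and on which build, is not given in the sources used here. The authors' deposited log2 ratios were not used. Values of 33069 genes and 109737 isoforms were read as deposited, and reads per library are unknown, so no count model was run and no counting interval is given. The gene identifiers had 0 matches among the RefSeq names at hand, so no coordinates or sequences are given.

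Differences were taken on log2(FPKM + 1), for genes whose mean over the libraries was at least 1 FPKM, with R 4.3.3, limma 3.58.1, Python 3.11.15 and pandas 2.3.3. Within Doe there is no replicate and no test. limma, checked on simulated data, compared the Doe difference with the mean of the other 3 lakes, with a mean-variance trend, 2 residual degrees of freedom per gene and a two-sided Benjamini-Hochberg threshold of 0.05; samples within the other lakes are not repeated either, so its p-values measure the spread of differences between lakes.

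The 31 gene lists are GeneName patterns. Members and lists were chosen with earlier results of these data known, and the patterns of 13 lists were corrected after their medians had been seen, because they caught wrongly matched names or missed right ones. Named genes follow a rule: the 10 well expressed genes with the largest and the 10 with the smallest Doe difference (at most 2 per name), the 5 per direction most alike in all lakes, the 5 per direction reversed in Doe, the 5 per direction with the smallest limma p, up to 4 members per list by size of the Doe difference, up to 4 families per direction with up to 3 members, and up to 5 isoforms per direction. The text gives a part of these genes. The ranking of isoforms by change of share, among genes within 0.5, and the split of the cuticle list were chosen after the values were seen. Alternatives were median-of-ratios size factors, quantile normalization, pseudocounts of 0.1 and 5, other filters, no trend, scaling without the most abundant gene, and leaving out each other lake. Scaling of the other lakes' own medians and counts was added after seeing the data, as were the list patterns as first written and the alternatives for families and isoforms.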

Additional observations from a re-analysis of the deposited data

Results flagged for a closer look

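Lists and gene counts are given here where Doe moved opposite to the 3 other lakes. The cuticle protein list had a median difference of 1.52 in Doe and medians below 0 in Black, Long and Round. The collagen and prolyl 4-hydroxylase list had a median of 0.25 in Doe and medians below 0 in the 3 other lakes, of which that of Black turned to 0.01 after quantile normalization. The difference between lakes was not tested for either list, and gene by gene limma called 0 genes. Counted by gene, 192 were lower in Red by at least 0.5 in the 3 other lakes and higher in Doe, and 12 were higher in Red in the 3 other lakes and lower in Doe. These counts are not tests either, and the second is no larger than those with Black (13) or Round (12) as the odd lake.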

How the results depend on the processing

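The counts depend most on the pseudocount, the filter and the fold. The 723 genes higher in Doe Red became 1173 with a pseudocount of 0.1, 289 with one of 5, 316 with a mean of at least 5 FPKM, 1854 past a difference of 0.5 and 240 past 2, and the 696 genes lower in Doe Red became 1183, 234, 359, 2197 and 112. The 41 genes higher in all lakes were 63 after quantile normalization, 72 and 20 with the pseudocounts of 0.1 and 5, 27 with the stricter filter and 78 to 103 without one lake. The 143 lower in all lakes were 92 after quantile normalization, 234 and 60 with those pseudocounts and 247 to 363 without one lake. The 12 genes higher in 3 lakes and lower in Doe were 23, 31, 1 and 5 under quantile normalization, the pseudocounts of 0.1 and 5 and the stricter filter, and 40 to 62 without one lake. The 192 lower in 3 lakes and higher in Doe were 98 with a pseudocount of 5 and 247 to 384 without one lake, the highest without Black. Counts over fewer lakes ask less of a gene and are larger by construction. limma called 1 gene higher in Doe with a pseudocount of 5, 1 without the trend, and 0 to 78 without one lake; lower calls were 0 to 15 without one lake. Both upper values came without Long, with fewer samples in the fit. Families with a median past 0.5 numbered 42, and 18 with a pseudocount of 5; isoforms in Doe past 1 numbered 2380, and 827 with it. Apart from those alternatives whose construction shows it, the cause was not tested.

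The lactate dehydrogenase median turned to -0.11 with the stricter filter, which leaves fewer of its genes. Of 217 list medians under an alternative, 207 moved by less than their SD over the 4 lakes, 9 by more and 1 reversed; with the patterns as first written the cuticle median was 1.48. Of 720 differences of named genes, 660 moved by less than that SD and 0 reversed. Every difference is taken within a lake and is so already paired by lake. Beyond that, by replicate number, no paired analysis was possible because all libraries carry the same number. Depth is unknown, so low genes have an error that cannot be stated.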
